A study of Mus musculus with 12 samples.

Results

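The 10 genes of Fc receptors and paired immune receptors were followed through the study, chosen by their gene names among the 41128 genes of the deposited count and RPKM tables. They are 10 of 41128 rows. Fcer1g and Tyrobp encode signalling adaptors, Fcgr1 and Fcgr3 activating Fc receptors and Fcgr2b the inhibitory Fc receptor. Lilrb4 and Cd200r1 encode inhibitory receptors, Cd200r4 and Trem2 receptors that signal through an activating adaptor, and Igsf6 an immunoglobulin superfamily membrane protein of leukocytes. All 10 passed the filter on low counts, but Fcgr1, Fcgr2b and Trem2 reached the filter's level in the 2 untreated 24 h libraries only, so that these 3 genes could pass through that group alone.

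RNA was sequenced from haemogenic endothelium, the endothelium that gives rise to blood cells, grown in culture from mouse embryonic stem cells. The cells were iSox7 cells, a derivative of the Ainv18 line in which doxycycline (Dox) switches on Sox7, an endothelial SOX transcription factor. In all groups FLK1+ cells sorted on day 3.5 of embryoid body differentiation had first been held for 48 h in liquid blast culture. The 6 groups of 2 libraries each were then kept for 6, 12 or 24 h without Dox or with 1 µg/ml Dox. The series title places the study in the endothelial-to-haematopoietic transition and asks how SOX7 affects genes that RUNX1 controls. The labels do not state whether the 2 replicates of a group came from separate cultures, and p-values here cover only the spread between libraries, possibly a technical one. The labels describe no Dox-treated cells without the Sox7 construct, so effects of Dox itself and of induced SOX7 cannot be told apart.

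Total counts ran from 13485804 to 35250074 per library, with 1 library of at most 15429846 and 1 of at least 27516106 in every group. Sox7 stood between 52.1 and 81.7 CPM (read counts scaled to a common library size) in the 6 untreated libraries and between 313.7 and 379 CPM in the 6 Dox libraries. Library sizes were scaled by TMM for these values. Fold changes are log2, given with their standard error (SE), and come with p-values of edgeR's quasi-likelihood fit that were adjusted by Benjamini-Hochberg over 15347 tested genes. The call threshold was 0.05 for the adjusted p.

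Fc receptors bind the constant part of antibodies and couple them to white blood cells. Activating Fc receptors and many paired receptors have no signalling motif of their own: they associate with the adaptors FcRγ (Fcer1g) or DAP12 (Tyrobp), whose ITAM motifs are phosphorylated by Src family kinases and then recruit SYK. Inhibitory partners, among them FcγRIIB (Fcgr2b) and gp49B (Lilrb4), carry ITIM motifs that recruit phosphatases, and pairs of activating and inhibitory receptors on 1 cell set its threshold of response. These genes are known from macrophages, granulocytes and mast cells, and several of them are under the ETS factor PU.1 in myeloid cells.

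Because such myeloid genes often lack a TATA box and carry purine-rich ETS sites close to the start, the stretch of 250 bases before each start site was searched in RefSeq's promoter sequences (GRCm38.p6). Windows were found for 7 of the 10 genes, 8 windows in all, with 2 for Fcgr3. Tyrobp, Lilrb4 and Cd200r1 had no entry. The letters searched on both strands were GAGGAA for PU.1 and other ETS factors, TGTGGT for RUNX, AGATAA for GATA and ACAAT for SOX. GAGGAA was found in 5 of the 8 windows, those of Fcgr1, Fcgr3, Trem2 and Igsf6, and in 23.3% of all 32851 windows of the same length. ACAAT was found in 4 of the 8 windows, those of Fcgr3, Fcgr2b and Igsf6, and in 27.7% of all windows. TGTGGT and AGATAA were in none of the 8 windows, and in 14% and 9.99% of all windows. The 2 windows of Fcgr3 overlap and hold the same matches. By gene, GAGGAA was thus found in 4 of 7 and ACAAT in 3 of 7. The share by gene over all genes was not computed. A match describes the letters only. The 4 ETS-type matches are shown because they stand at similar places, with the capitals marking the match, which reads as TTCCTC since GAGGAA lies on the opposite strand.

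Fcgr1 (chr3:96294007-96294036, minus strand): atggcaacttccTTCCTCttttctaatctt
Fcgr3 (chr1:171059392-171059421, minus strand): gagtccatttccTTCCTCtttttgtagttc
Trem2 (chr17:48346349-48346378, plus strand): agcctcctttccTTCCTCcctccctcacgc
Igsf6 (chr7:121074552-121074581, minus strand): ccttaatatgagTTCCTCtctttacttctt

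The first capital lies at position -55 from the start site in Fcgr1, at -6 or -15 in Fcgr3 (counted from either of its 2 start sites), at -40 in Trem2 and at -39 in Igsf6. The whole windows of Fcgr1, the high-affinity IgG receptor gene, and of Trem2 are printed for their wider context, again with the match in capitals.

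Fcgr1 (chr3:96293970-96294219, minus strand): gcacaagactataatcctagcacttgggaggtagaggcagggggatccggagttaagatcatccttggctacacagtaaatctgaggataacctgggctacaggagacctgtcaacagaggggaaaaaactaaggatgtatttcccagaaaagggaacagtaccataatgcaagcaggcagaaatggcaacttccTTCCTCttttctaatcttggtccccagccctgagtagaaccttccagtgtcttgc
Trem2 (chr17:48346151-48346400, plus strand): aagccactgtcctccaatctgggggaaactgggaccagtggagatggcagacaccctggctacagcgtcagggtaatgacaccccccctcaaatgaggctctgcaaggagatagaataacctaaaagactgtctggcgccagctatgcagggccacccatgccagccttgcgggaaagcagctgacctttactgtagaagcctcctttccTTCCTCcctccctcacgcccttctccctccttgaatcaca

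Untreated cells raised all 10 genes between 12 and 24 h. Each of them was called higher at 24 h than at 12 h (10 of 10, where 12.2% of all tested genes were called higher), with a median log2 fold change of 1.67 beside 0.01 over all tested genes. The 7 genes that passed the filter's level in every library were all among them, from 0.55 ± 0.18 (Cd200r1) to 2.29 ± 0.24 (Igsf6). The median also covers Fcgr1, Fcgr2b and Trem2, whose entry through the untreated 24 h libraries favoured a rise. Between 6 and 12 h 4 of 10 were called higher, where 4.39% of all tested genes were: Tyrobp (1.37 ± 0.30), Fcgr3 (1.11 ± 0.26), Lilrb4 (0.97 ± 0.15) and Cd200r4 (1.32 ± 0.34). With Dox, 2 of 10 were called higher from 6 to 12 h, Fcer1g (0.90 ± 0.29) and Igsf6 (1.04 ± 0.35), where 8.84% of all tested genes were. From 12 to 24 h with Dox 1 of 10, Lilrb4 (0.72 ± 0.14), was called higher, where 7.84% of all tested genes were. The count of 4 from 6 to 12 h fell to 2 without untreated 6 h replicate 1 and to 2 without untreated 6 h replicate 2. The count of 10 fell to 6 without untreated 12 h replicate 2 and to 6 without untreated 24 h replicate 2. The 2 rises with Dox from 6 to 12 h went to 1 without Dox 6 h replicate 1, and to 0 without Dox 6 h replicate 2 or Dox 12 h replicate 1.

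After 24 h, Dox-treated cells held less of most of these RNAs than untreated cells. At that hour 8 of 10 genes were called lower with Dox and the other two were not called, where 6.52% of all tested genes were called lower. The median log2 fold change of the 10 was -1.76, beside -0.01 over all tested genes. Of the 7 genes above the filter's level in every library 6 were lower, and the 7 ran from -0.39 ± 0.18 (Cd200r1) to -2.23 ± 0.24 (Igsf6). The median also covers Fcgr1, Fcgr2b and Trem2, whose entry through the untreated 24 h libraries favoured lower values with Dox. At 12 h 2 of 10 were lower, Lilrb4 and Cd200r4, where 3.51% of all tested genes were. At 6 h edgeR called 0 of 10 in either direction, where it called 1.54% of all tested genes. Of the 10, 0 had an unadjusted p under 0.05 at 6 h with edgeR, with DESeq2 or with limma on log2(RPKM + 0.5). The Dox and no Dox comparison at 24 h and the untreated course from 12 to 24 h share the untreated 24 h libraries, so these counts are not separate pieces of evidence. In bulk RNA, fewer cells that carry these receptors and less receptor RNA per cell cannot be told apart.

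**Figure D1:**
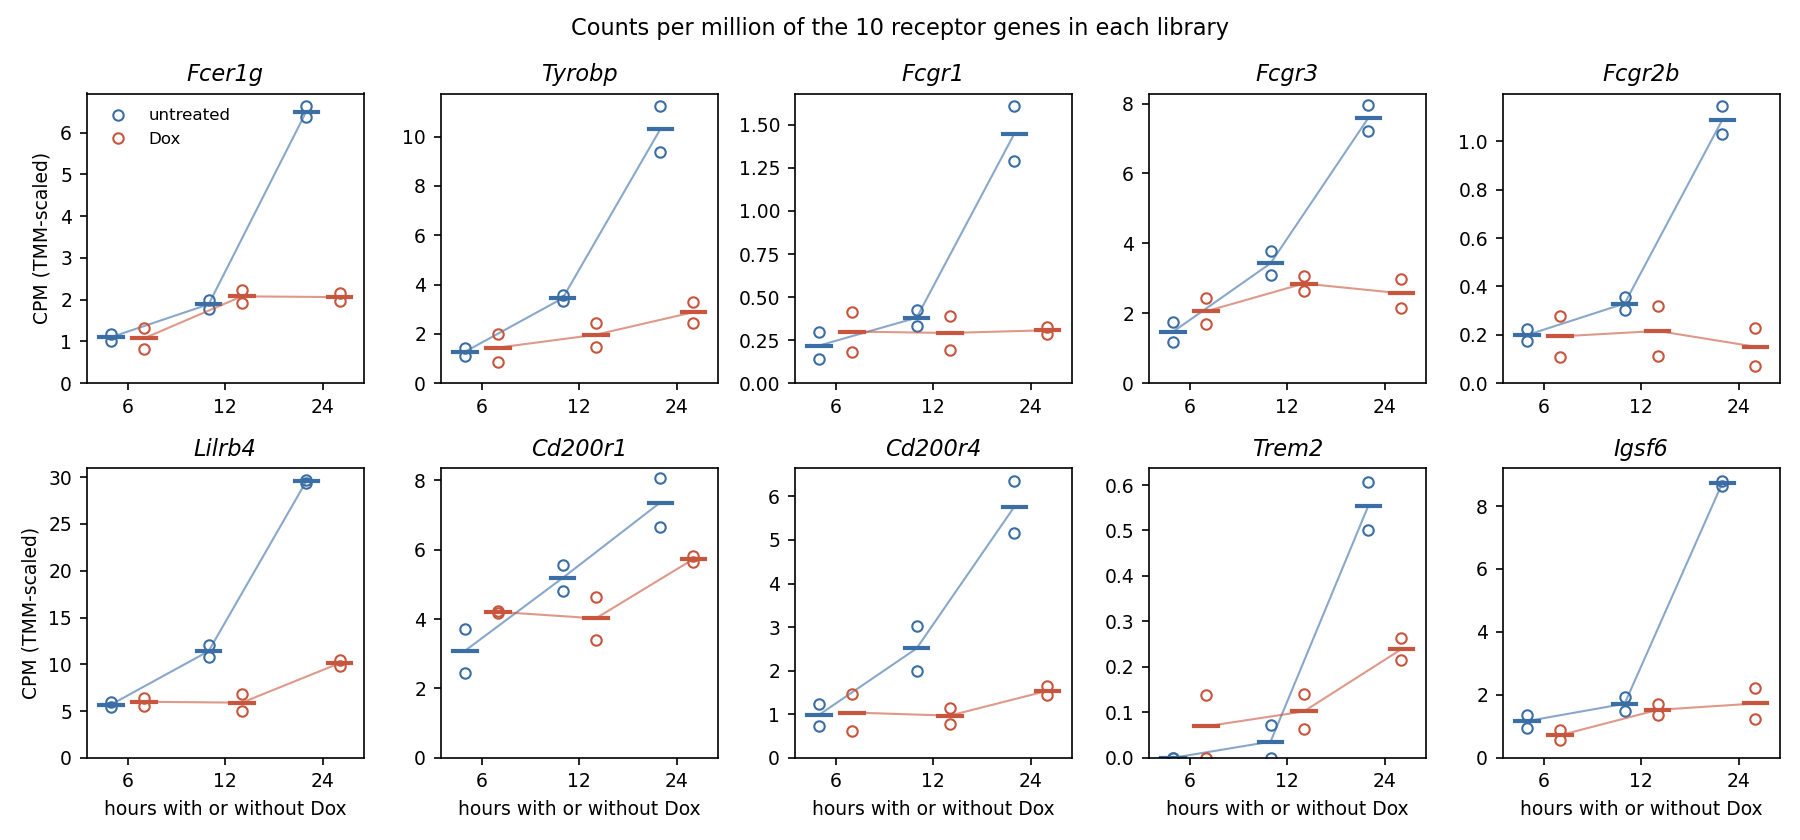
Normalised read counts of the 10 genes (CPM with TMM scaling, linear axes from 0, each gene on its own scale) by hours with or without Dox, with a circle for each library, bars at the mean of the 2 libraries and lines joining the means. Untreated libraries at 24 h lie highest in every panel: Lilrb4 reached 29.7 CPM there and stayed at or below 12.0 CPM elsewhere, while Trem2 stayed at or below 0.607 CPM throughout.

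Fcer1g encodes FcRγ, the adaptor chain of Fcgr1, Fcgr3 and the IgE receptor (chromosome 1, 171229572 to 171234365, minus strand, GRCm38). At 6 h it stood at 1.02 and 1.19 CPM in untreated and at 0.832 and 1.32 CPM in Dox libraries. At 12 h it stood at 1.78 and 2.00 CPM in untreated and at 2.24 and 1.92 CPM in Dox libraries. At 24 h the untreated libraries held 6.36 and 6.65 CPM and the Dox libraries 1.97 and 2.15 CPM. The groups overlapped at 6 and 12 h and lay apart at 24 h, where the Dox libraries kept the range of the 12 h libraries. Fcer1g was 3.19-fold lower with Dox at 24 h (log2 fold change -1.68 ± 0.23, adjusted p = 3e-06), after 0.07 ± 0.33 at 6 h and 0.14 ± 0.26 at 12 h, neither called.

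Tyrobp encodes DAP12, the adaptor of TREM2 and of CD200R4 (chromosome 7, 30413788 to 30417577, plus strand). At 6 h the untreated libraries had 1.44 and 1.11 CPM and the Dox libraries 2.01 and 0.882 CPM. At 12 h they had 3.56 and 3.33 CPM without Dox, above the 2.46 and 1.48 CPM with Dox. At 24 h the untreated libraries reached 9.37 and 11.2 CPM, and the Dox libraries stood at 2.46 and 3.30 CPM. The 6 h groups overlapped, and the 12 h and 24 h groups did not. The difference was 3.74-fold at 24 h (-1.90 ± 0.23, adjusted p = 4.3e-07), while the 12 h value of -0.70 ± 0.27 missed the threshold (adjusted p = 0.12).

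Among the activating Fc receptors, Fcgr3 encodes the low-affinity FcγRIII (chromosome 1, 171051174 to 171064935, minus strand). Without Dox it had 1.76 and 1.19 CPM at 6 h, 3.77 and 3.09 CPM at 12 h, and 7.22 and 7.95 CPM at 24 h. With Dox it had 2.43 and 1.69 CPM at 6 h, 2.63 and 3.08 CPM at 12 h, and 2.99 and 2.15 CPM at 24 h. Its Dox libraries thus stayed between 1.69 and 3.08 CPM at all 3 hours, with an overlap with untreated libraries at 6 h only. At 24 h Fcgr3 was 2.86-fold lower with Dox (-1.51 ± 0.22, adjusted p = 6.9e-06); at 12 h the value was -0.26 ± 0.23 and not called. Of its 75-base stretches, 5.42% also occur in Fcgr2b transcripts of GENCODE M21, so a small part of its reads could be shared with that gene.

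Fcgr1 encodes the high-affinity receptor FcγRI (chromosome 3, 96282909 to 96293969, minus strand) and was scarce, with 138 reads over all 12 libraries. The 8 libraries of 6 and 12 h held 3 to 14 reads each. At 24 h it had 18 and 53 reads without Dox (1.29 and 1.61 CPM) and 10 and 4 reads with Dox (0.328 and 0.287 CPM). The 24 h groups did not overlap. Fcgr1 was 4.65-fold lower with Dox at 24 h (-2.22 ± 0.50, adjusted p = 0.0025). It reached the filter's level in the untreated 24 h libraries only, so the way it entered the test favoured a lower value with Dox. Without untreated 24 h replicate 2, the library with 53 reads, the value was -2.01 with an adjusted p of 0.08, the highest over its 13 alternatives, which began at 0.0011.

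Fcgr2b, the gene of the inhibitory FcγRIIB (chromosome 1, 170960558 to 170976547, minus strand), had 97 reads in all. Its 6 and 12 h libraries held 3 to 10 reads each, between 0.110 and 0.356 CPM. At 24 h it had 16 and 34 reads without Dox (1.14 and 1.03 CPM), and 7 and 1 reads with Dox (0.230 and 0.0718 CPM). Like Fcgr1, it reached the filter's level in the untreated 24 h libraries only, so the way it entered the test favoured a lower value with Dox. Its log2 fold change at 24 h was -2.57 ± 0.61 (5.92-fold, adjusted p = 0.0037). Without Dox 24 h replicate 2 it was -2.19 with an adjusted p of 0.057, the highest over its 13 alternatives, which began at 0.0037. Of its 75-base stretches 5.43% also occur in transcripts of other genes, Fcgr3 among them.

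Lilrb4 (chromosome 10, 51480640 to 51496613, plus strand) encodes gp49B, which binds integrin αvβ3 and signals through ITIMs. At 6 h it had 5.97 and 5.41 CPM in untreated and 6.44 and 5.55 CPM in Dox libraries. At 12 h it had 12.0 and 10.8 CPM in untreated and 6.79 and 5.00 CPM in Dox libraries. At 24 h it had 29.7 and 29.4 CPM in untreated and 9.82 and 10.4 CPM in Dox libraries. The groups overlapped at 6 h and lay apart at both later hours, and the Dox libraries at 24 h were just below the untreated libraries at 12 h. Lilrb4 was 1.85-fold lower with Dox at 12 h (-0.88 ± 0.14, adjusted p = 1e-04) and 2.94-fold lower at 24 h (-1.55 ± 0.13, adjusted p = 1.3e-10). This row is uncertain as a single gene. Its identifier is named Gm49339 in GENCODE M21, its span overlaps that of Gp49a, and 95.3% of its 75-base stretches also occur in transcripts of other genes, chiefly those named Lilrb4a and Lilr4b.

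CD200R1 and CD200R4 belong to 1 receptor family: CD200R1 binds CD200 and inhibits, while CD200R4 pairs with DAP12. Cd200r1 (chromosome 16, 44765736 to 44794978, plus strand) had 3.72 and 2.45 CPM in untreated and 4.23 and 4.19 CPM in Dox libraries at 6 h. It had 5.55 and 4.81 CPM without and 4.64 and 3.40 CPM with Dox at 12 h. At 24 h it had 6.65 and 8.07 CPM without and 5.65 and 5.81 CPM with Dox. The Dox libraries lay above the untreated ones at 6 h and below them at 12 and 24 h, by small margins. None of the 3 comparisons was called, with log2 fold changes of 0.38 ± 0.22, -0.29 ± 0.20 and -0.39 ± 0.18. At 24 h the 95% interval ran from -0.76 to -0.02 and the adjusted p was 0.21.

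Cd200r4 (chromosome 16, 44811733 to 44839150, plus strand) had 1.23 and 0.741 CPM in untreated and 1.46 and 0.625 CPM in Dox libraries at 6 h. At 12 h it had 1.99 and 3.03 CPM without and 0.782 and 1.15 CPM with Dox. At 24 h it had 6.36 and 5.16 CPM without and 1.64 and 1.44 CPM with Dox. The activating family member was therefore apart between the groups at 12 and at 24 h. It was 2.87-fold lower with Dox at 12 h (-1.52 ± 0.34, adjusted p = 0.0047) and 3.61-fold lower at 24 h (-1.85 ± 0.29, adjusted p = 2.8e-05). The 12 h call was lost in 4 of 14 alternatives: without untreated 12 h replicate 2 the value was -1.12 (adjusted p = 0.21), without Dox 12 h replicate 1 it was -1.17 (adjusted p = 0.20), and limma on log2 RPKM gave -0.79 and -1.19 (adjusted p = 0.086 and 0.11 with pseudocounts of 0.5 and 0.1). Over all 14 its adjusted p ran from 1.7e-05 to 0.21. Of its 75-base stretches 2.45% occur in Cd200r2 or Cd200r1 transcripts, and 0.401% of those of Cd200r1 occur in Cd200r4.

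Trem2 (chromosome 17, 48346401 to 48354147, plus strand), a lipid and apolipoprotein receptor of macrophages and microglia, was the scarcest of the 10 with 47 reads in 12 libraries. Untreated libraries at 6 h held 0 reads, which allows up to 0.105 and 0.222 CPM when 3 reads are taken as the limit, and Dox libraries at 6 h held 2 and 0. At 12 h there were 1 and 0 reads without Dox and 5 and 1 with Dox. At 24 h there were 7 and 20 reads without Dox (0.501 and 0.607 CPM) and 8 and 3 with Dox (0.263 and 0.215 CPM). The 24 h groups did not overlap, but a difference was not detectable at this depth: the log2 fold change was -1.19 ± 0.68, with a 95% interval from -2.59 to 0.21 and an adjusted p of 0.34. The rise in untreated cells from 12 to 24 h was called for Trem2 (adjusted p = 0.0032), against a 12 h group with 1 read. Trem2 too reached the filter's level in the untreated 24 h libraries only, which favoured such a rise.

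Igsf6 (chromosome 7, 121064067 to 121074530, minus strand) had 1.37 and 0.963 CPM in untreated and 0.554 and 0.882 CPM in Dox libraries at 6 h. At 12 h it had 1.50 and 1.94 CPM without and 1.70 and 1.35 CPM with Dox. At 24 h it had 8.79 and 8.65 CPM without and 2.23 and 1.22 CPM with Dox. The groups lay apart at 6 h, overlapped at 12 h and lay far apart at 24 h. Igsf6 was 4.68-fold lower with Dox at 24 h (-2.23 ± 0.24, adjusted p = 6.1e-08), after uncalled values of -0.68 ± 0.38 at 6 h and -0.17 ± 0.29 at 12 h. In untreated cells its rise from 12 to 24 h was 4.89-fold (2.29 ± 0.24, adjusted p = 4.1e-08).

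**Figure D2:**
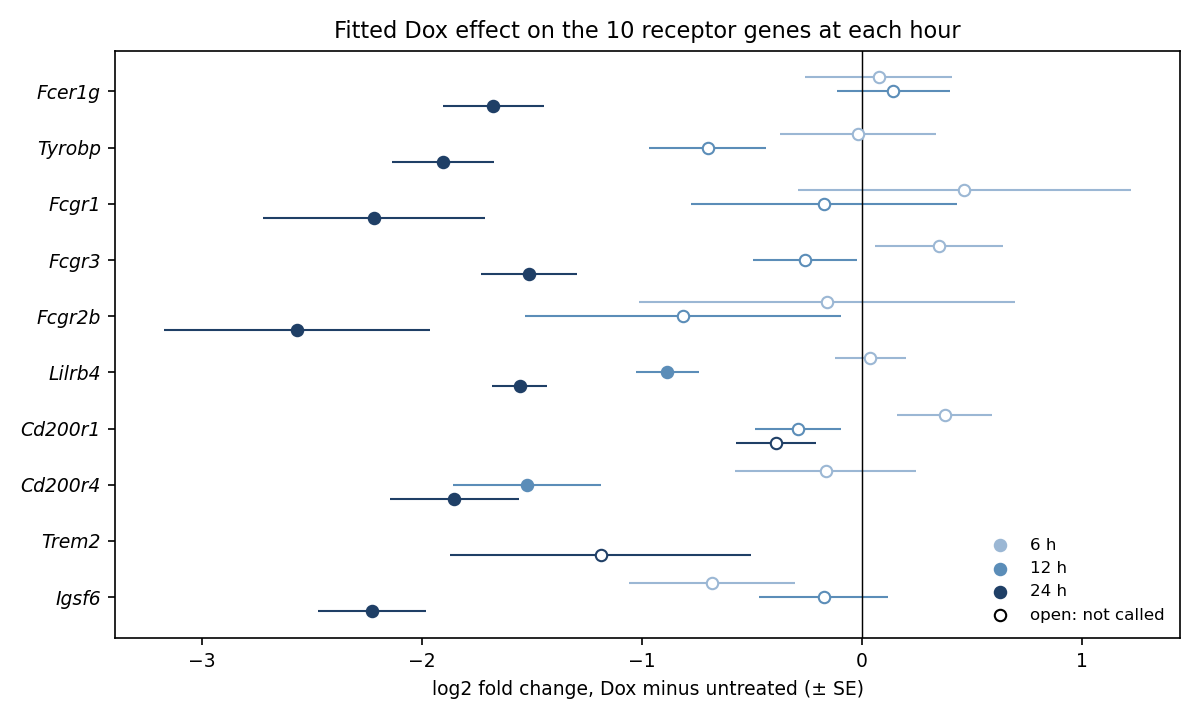
Log2 fold change of Dox against no Dox for each gene at 6, 12 and 24 h, with bars of 1 standard error, from the edgeR model over all 12 libraries. Filled points mark calls at an adjusted p under 0.05, the 6 and 12 h values of Trem2 are left out because its untreated groups held 0 and 1 reads, and at 24 h all 10 points lie below 0, between -0.39 and -2.57.

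Each group held 1 deep and 1 shallow library, which allowed the ratios to be read within each depth. At 24 h the log2 ratio of Dox to untreated was below 0 in both depths for 10 of 10 genes, from -2.24 to -0.51 among deep and from -3.45 to -0.19 among shallow libraries. The lowest values were those of Fcgr1 (deep) and Fcgr2b (shallow). For these 2 genes and Trem2, entry through the untreated 24 h libraries favoured values below 0. The 7 genes above the filter's level in every library ran from -2.18 to -0.51 among deep and from -2.81 to -0.19 among shallow libraries. At 12 h the log2 ratio was below 0 in both depths for 7 of the 10 genes and of opposite sign for 2. At 6 h it was of opposite sign between depths for 6 of 10 genes. Tyrobp at 6 h, for example, gave -0.70 between the deep and 0.83 between the shallow libraries. Each ratio sets 1 library against 1. How many of all tested genes lay below 0 in both depths was not computed. These are the libraries of the main comparison, so the ratios are not separate evidence.

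Whether the Dox effect itself changed with time was tested as a difference of differences. From 12 to 24 h it became more negative for 3 of 10 genes, where 1.21% of all tested genes changed in either direction: Fcer1g by -1.82 ± 0.35 (adjusted p = 0.0037), Igsf6 by -2.05 ± 0.39 (adjusted p = 0.0031) and Fcgr3 by -1.26 ± 0.32 (adjusted p = 0.046). Without Dox 12 h replicate 1 that count was 0. Tyrobp, with -1.20 ± 0.36, missed the threshold (adjusted p = 0.10). From 6 to 12 h 1 of 10, Lilrb4, changed (-0.92 ± 0.22, adjusted p = 0.047), where 0.417% of all tested genes did. That call was lost in 15 of 18 alternatives, with adjusted p-values from 0.0056 to 0.24 over all of them, among them each fit without 1 of the 4 libraries of 6 h and those without untreated 12 h replicate 1, untreated 12 h replicate 2 or Dox 12 h replicate 2. The Fcgr3 call was lost in 11 of 18, with adjusted p-values from 0.0047 to 0.32. Cd200r4 and Lilrb4, which were lower from 12 h on, had differences of -0.33 ± 0.46 and -0.67 ± 0.19 between 12 and 24 h that were not called (adjusted p = 0.87 and 0.081).

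Levels of different genes were compared by the deposited RPKM values, which divide by a length for each gene. The order of the genes therefore depends on the length used. In untreated cells at 24 h Lilrb4 (18.2 ± 0.17 RPKM, SD, n = 2) and Tyrobp (16.8 ± 2.1) led, with overlapping libraries. The Lilrb4 row shares 95.3% of its 75-base stretches with transcripts of other genes, so its place in this and the following orders is uncertain. Fcer1g followed at 7.47 ± 0.22 RPKM, then Fcgr3 at 4.01 ± 0.27, Igsf6 at 3.75 ± 0.050, Cd200r1 at 3.32 ± 0.45 and Cd200r4 at 2.59 ± 0.39, whose neighbours in this order did not overlap. Fcgr1 (0.514 ± 0.080 RPKM), Fcgr2b (0.260 ± 0.019) and Trem2 (0.103 ± 0.014) came last. In this order the 2 adaptors stood above each of the receptors that signal through them, Fcgr1, Fcgr3, Cd200r4 and Trem2.

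With Dox at 24 h Lilrb4 (6.17 ± 0.23 RPKM) and Tyrobp (4.65 ± 0.94) again led, without overlap. Cd200r1, at 2.56 ± 0.044 RPKM, moved from the sixth to the third place, ahead of Fcer1g at 2.35 ± 0.14 and Fcgr3 at 1.35 ± 0.31. Igsf6 (0.737 ± 0.31 RPKM) and Cd200r4 (0.685 ± 0.067) overlapped, as did Trem2 (0.0440 ± 0.0063) and Fcgr2b (0.0357 ± 0.027) at the end, with Fcgr1 at 0.108 ± 0.011 between these pairs. At 6 h without Dox the order began with Lilrb4 (3.51 ± 0.24 RPKM), Tyrobp (2.08 ± 0.38) and Cd200r1 (1.40 ± 0.41), the latter overlapping with Fcer1g (1.27 ± 0.14). At 12 h without Dox these 4 stood at 7.08 ± 0.59, 5.65 ± 0.30, 2.36 ± 0.25 and 2.18 ± 0.17 RPKM in the same order. With Dox they stood at 3.65 ± 0.39, 2.33 ± 1.3, 1.88 ± 0.013 and 1.22 ± 0.39 RPKM at 6 h, and at 3.66 ± 0.77, 3.23 ± 1.1, 1.83 ± 0.39 and 2.41 ± 0.25 RPKM at 12 h. The lowest 3 genes at 6 and 12 h, with or without Dox, were Fcgr1, Fcgr2b and Trem2, with at most 0.153 RPKM in any library.

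Other receptors of these families were lower at 24 h too. Of 57 other receptors of these families listed, 51 were in the table and 25 were tested, and 21 of the 25 were lower with Dox at 24 h, with a median log2 fold change of -1.83 beside -0.01 over all tested genes, of which 6.52% were called lower. Of the 25, 11 were above the filter's level in every library, and 10 of these 11 were lower at 24 h, with a median of -1.83. The other 14 reached that level in some libraries only, 1 of them in the untreated 24 h libraries alone, so that a high level in 1 group could have let them pass. At 12 h 9 of the 25 were lower, where 3.51% of all tested genes were, and 7 of the 9 were among those 11. At 6 h 0 were called, with 2 at an unadjusted p under 0.05. Sirpa, the inhibitory receptor for CD47, had 74.5 CPM without and 35.1 CPM with Dox at 24 h (-1.09 ± 0.08, adjusted p = 1.3e-11). Clec4n, which encodes the FcRγ-coupled fungal receptor dectin-2, had 17.5 and 2.65 CPM (-2.65 ± 0.21). Cd300lb, a DAP12-coupled receptor gene, had 10.4 and 1.89 CPM (-2.38 ± 0.22). The inhibitory collagen receptor gene Lair1 (10.2 and 1.85 CPM, -2.47 ± 0.25) and the DAP12-coupled Clec5a (10.4 and 2.79 CPM, -1.93 ± 0.21) completed the 5 with the smallest p. Both inhibitory and activating receptors were thus among those lower with Dox than without it at 24 h. With Dox the 51 receptors summed to 54.6 to 60.2 CPM at 6 h and 71.5 to 72.7 CPM at 24 h. Without Dox they summed to 61.7 to 63.7 CPM and 188.2 to 195.1 CPM at the same hours. Sirpa alone had means of 28.0 and 35.1 CPM with Dox and 29.6 and 74.5 CPM without Dox at these hours, a large part of the sums. In untreated cells 18 of the 25 rose from 12 to 24 h, where 12.2% of all tested genes were called higher. Of the 11 above the filter's level in every library 9 rose.

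Of 13 ligands and binding partners listed and found 11 were tested. At 24 h 4 were lower with Dox, where 6.52% of all tested genes were, and 1 was higher. The median log2 fold change was -0.13. Cd200, which encodes the ligand of CD200R1, was the 1 called higher with Dox, where 4.5% of all tested genes were. It had 50.8 CPM without and 72.3 CPM with Dox at 24 h (0.51 ± 0.08, adjusted p = 1.7e-05). Its 12 h value of 0.20 ± 0.08 was not called. Itgb3, a subunit of the αvβ3 integrin that gp49B binds, had 425 CPM without and 255 CPM with Dox (-0.73 ± 0.06). Itgb3 was also lower with Dox at 6 h (-0.37 ± 0.06, adjusted p = 0.00058) and at 12 h (-0.61 ± 0.06, adjusted p = 4.9e-08). At 6 h it was the 1 gene of the 11 called, where 1.54% of all tested genes were called in either direction. At 12 h 2 of the 11 were called, Itgb3 and Apoe (-0.38 ± 0.05), both lower, where 3.51% of all tested genes were called lower. Ifitm3, an interferon-induced membrane protein gene, had 35.4 and 21.5 CPM at 24 h (-0.74 ± 0.10). Apoe, a lipoprotein that TREM2 binds, changed by -0.21 ± 0.05 at 24 h, and the galectin gene Lgals3 by -0.52 ± 0.13.

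Of the signalling genes downstream of ITAMs and ITIMs, most of those called at 24 h were lower with Dox. Of 50 listed and found 47 were tested, and at 24 h 20 were lower, where 6.52% of all tested genes were. Another 2 were higher, a share near the 4.5% of all tested genes. The median log2 fold change was -0.28. Among the 42 above the filter's level in every library, 18 were lower and 2 higher. At 12 h 4 were lower and 3 higher, where 3.51% and 3.26% of all tested genes were. At 6 h edgeR called 0 in either direction, with 6 at an unadjusted p under 0.05. DESeq2 called 0 lower at 6 h, and genes higher were not counted with it. Ptprc, which encodes the phosphatase CD45, had 14.2 CPM without and 4.77 CPM with Dox at 24 h (-1.57 ± 0.18, adjusted p = 2.1e-07). Pik3ap1, the gene of a phosphoinositide 3-kinase adaptor, changed by -1.69 ± 0.20, and Fgr, a Src family kinase gene, by -1.76 ± 0.22. Syk, whose kinase docks on phosphorylated ITAMs, had 44.5 and 26.5 CPM (-0.74 ± 0.10, adjusted p = 2.6e-06). Ptpn6, the gene of the phosphatase SHP-1 that ITIMs recruit, had 25.5 and 14.0 CPM (-0.82 ± 0.12). The fold change of Syk was thus smaller in size than those of both adaptors, a difference between genes that was not tested. The 2 called higher with Dox at 24 h were Sh2b2 and Plcg1. Sh2b2, an adaptor gene, had 1.97 CPM without and 3.30 CPM with Dox (0.78 ± 0.25, adjusted p = 0.039). The phospholipase gene Plcg1 had 166.7 CPM without and 185.6 CPM with Dox (0.16 ± 0.05, adjusted p = 0.048).

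**Figure D3:**
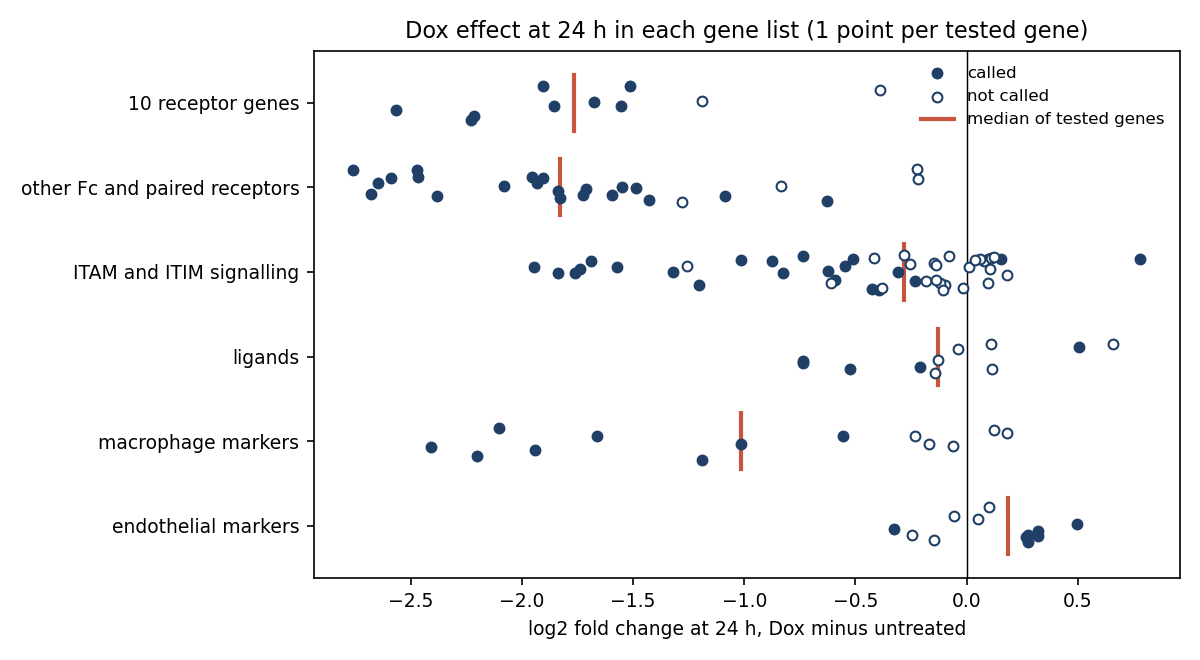
Log2 fold change of Dox against no Dox at 24 h for every tested gene of 6 lists: the 10 genes, 25 other receptors, 47 signalling genes, 11 ligands, 13 macrophage and 12 endothelial markers, with filled points for called and open points for uncalled genes and a red bar at each median (vertical scatter has no meaning). The medians are -1.76, -1.83, -0.28, -0.13, -1.02 and 0.18 in that order. The first covers Fcgr1, Fcgr2b and Trem2, which reached the filter's level in the untreated 24 h libraries only.

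Markers of the cell types that carry these receptors were read in the same libraries. Of 18 macrophage markers 13 were tested, and 8 were lower with Dox at 24 h, where 6.52% of all tested genes were. Their median was -1.02 over the 13. Of the 9 above the filter's level in every library 6 were lower. Ctss, 1 of the 8, reached that level in the untreated 24 h libraries only. The summed level of the 18 markers at 24 h was 118.9 to 121.5 CPM without and 65.3 to 67.2 CPM with Dox. Over all 6 and 12 h libraries it was 60.7 to 83.6 CPM. Mrc1, a macrophage and endothelial scavenger receptor gene, alone made up 41.0 to 53.7 CPM of the 6 and 12 h sums. The other markers summed to 92.2 to 94.5 CPM without and 43.5 to 44.4 CPM with Dox at 24 h, beside 19.6 to 32.1 CPM over all 6 and 12 h libraries. Without Mrc1, a sum added after its values were seen, the Dox libraries at 24 h thus lay above those of the earlier hours. In untreated cells 12 of the 13 rose from 12 to 24 h, where 12.2% of all tested genes were called higher, and Mrc1 fell (-0.78 ± 0.11). Marco and Timd4 had 0 reads in all 12 libraries and C1qa had 3. The 5 tested markers not called at 24 h were Mrc1 (-0.23 ± 0.11), C1qb (-0.06 ± 0.49), C1qc (0.18 ± 0.60), Mertk (-0.17 ± 0.26) and Lyz2 (0.12 ± 0.13). Lyz2 was called higher with Dox at 6 h (0.92 ± 0.16) and 12 h (0.73 ± 0.14). Another 1 was called lower at 6 h and 2 at 12 h. Of all tested genes 1.54% were called at 6 h, and 3.51% lower and 3.26% higher at 12 h. What part macrophages had in the lower receptor levels with Dox at 24 h was not tested.

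Markers of mast cells and basophils were near 0 although Fcer1g serves the IgE receptor: Fcer1a, Tpsb2, Tpsab1, Prss34 and Mrgprb2 had 0 reads in all 12 libraries, and the 12 markers summed to 0.359 to 2.72 CPM. Only 2 of the 12 were tested, and 1 was lower with Dox at 24 h, where 6.52% of all tested genes were. That gene, Hdc, reached the filter's level in the untreated 24 h libraries only. The same share of all tested genes stands beside the granulocyte and lymphoid counts below. Of 12 granulocyte markers 3 were tested and all 3 were lower at 24 h, while Camp, S100a9 and Ly6g had 0 reads. Of the 3 tested, 1 (Mpo) was above the filter's level in every library and 2 reached it in some libraries only. The 12 granulocyte markers summed to 30.4 to 32.1 CPM without and 9.98 to 10.1 CPM with Dox at 24 h. Mpo alone made up 27.2 to 27.7 CPM of these sums without and 9.03 to 9.12 CPM with Dox. Of 12 lymphoid and natural killer markers 1, Il7r, was tested and was lower (-2.24 ± 0.42), and Cd3e, Cd3g, Ms4a1, Ncr1, Klrk1 and Gzma had 0 reads. Il7r reached the filter's level in some libraries only. The 12 summed to 2.86 to 3.06 CPM without and 0.215 to 0.952 CPM with Dox at 24 h.

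Markers of other blood lineages were also lower. At 24 h 7 of 8 tested megakaryocyte markers were lower with Dox, where 6.52% of all tested genes were. The other 1, Vwf, was higher, where 4.5% of all tested genes were. Both shares also stand beside the erythroid and endothelial counts below. The megakaryocyte sums were 494.7 to 515 CPM without and 197 to 212 CPM with Dox. Plek alone made up 377.8 to 397.4 CPM of these sums without and 112.7 to 123.1 CPM with Dox. The other megakaryocyte markers summed to 117 to 118 CPM without and 84.1 to 88.5 CPM with Dox. Of 10 erythroid markers 9 were lower and 1, Hbb-y, was higher, with sums of 2387 to 2663 CPM without and 1251 to 1524 CPM with Dox. Of 12 endothelial markers 6 were higher and 1 was lower, and they summed to 2110 to 2129 CPM without and 2457 to 2557 CPM with Dox. All 12 endothelial markers, among them Cdh5, Pecam1, Kdr, Tek and Tie1, had reads in every library, and their sums exceeded those of the macrophage markers in each.

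Genes beside the 10 were read to see whether their surroundings moved too. Igsf6 lies inside Mettl9, on the opposite strand. Mettl9 had 124 CPM without and 119 CPM with Dox at 24 h (-0.06 ± 0.06, adjusted p = 0.61), far above the 8.72 CPM of Igsf6. The library kit kept strand, but the strand setting of the counting is not given in the sources used here, so reads of both genes may have been told apart or not. Beside Fcer1g, Tomm40l at 7058 bases (-0.07 ± 0.10) was not called, and Apoa2 and Nr1i3 had 1 and 2 reads in all. Hcst, which encodes the adaptor DAP10 and lies 140 bases from Tyrobp, had 4 reads in 12 libraries. A Dox effect on this second adaptor gene could not be measured. Nfkbid, 4155 bases from Tyrobp, changed by -0.81 ± 0.32 (adjusted p = 0.11).

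At 24 h 2 neighbours were called lower, Gp49a and Treml1. Gp49a, which overlaps Lilrb4 and shares sequence with it, had 7.68 CPM without and 2.64 CPM with Dox at 24 h (-1.59 ± 0.21, adjusted p = 1.9e-06). Treml1, a platelet receptor gene 5769 bases from Trem2, had 1.44 and 0.406 CPM (-1.71 ± 0.50, adjusted p = 0.020), while Trem2 itself was not called. Hist2h2bb near Fcgr1, Otoa near Igsf6 and the microRNA rows Mir6546 and Gm27552 at Fcgr3 had 67, 28, 0 and 0 reads and were not tested. Fcgr2b, Cd200r1 and Cd200r4 had no other counted gene within 10 kb.

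**Figure D4:**
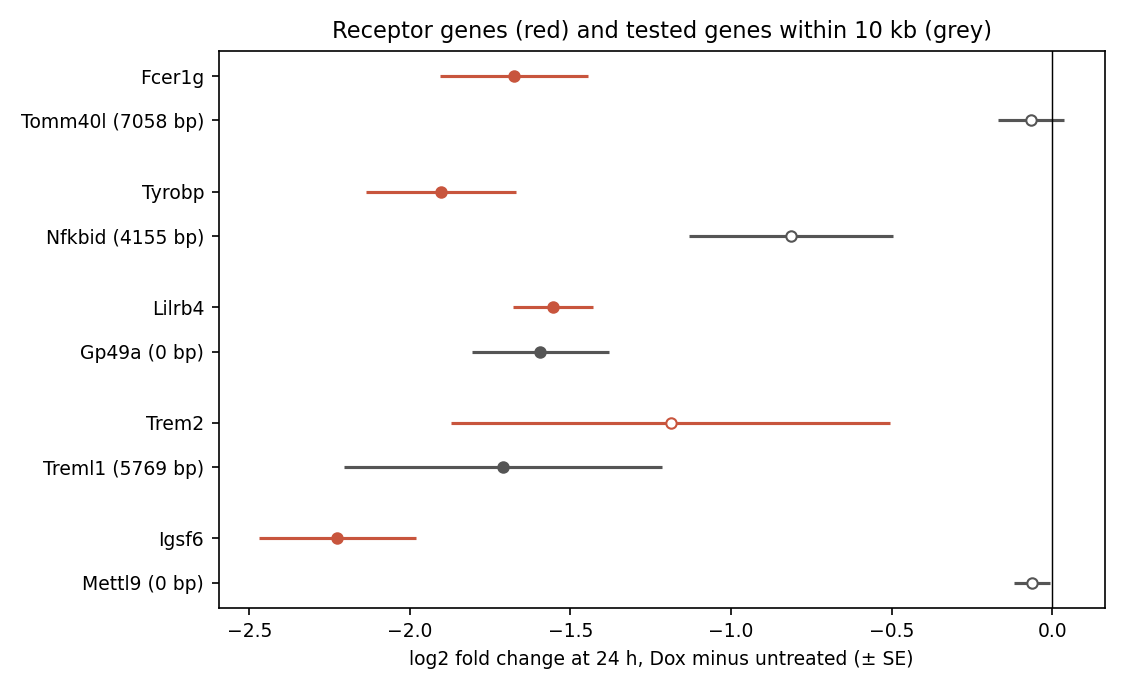
Log2 fold change of Dox against no Dox at 24 h, with bars of 1 standard error, for receptor genes with a tested neighbour and for the neighbours reported here, grouped by locus, with the distance in bases (0 for overlapping genes), red for the receptor genes, grey for neighbours and open points for uncalled genes. Tomm40l and Mettl9 sit within 0.07 of 0, while Gp49a (-1.59) beside the called Lilrb4 and Treml1 (-1.71) beside the uncalled Trem2 were called lower.

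Genes with the most similar course over the 12 libraries were found by the root mean square difference of centred log2 CPM. For Tyrobp these were Samd9l, Ifih1, Pik3ap1, Ccl6 and Pla2g7, with differences of 0.253 to 0.294 among 12450 genes compared and Pearson's r of 0.959 to 0.972. For Fcer1g they were Trim30a, Irgm1, Gp49a, Parp12 and Ifi202b, at 0.222 to 0.275 and r of 0.946 to 0.967. For Trem2 they were Gpnmb, Alox5, Ddx58, Gxylt2 and Nckap1l, at 0.463 to 0.489 and r of 0.879 to 0.914, a looser likeness over libraries with few Trem2 reads. These correlations describe 12 libraries that share the same 6 groups. At 24 h the 5 genes most like Tyrobp had log2 fold changes from -1.51 (Samd9l) to -1.92 (Ccl6), and those most like Fcer1g from -1.30 (Parp12) to -1.59 (Gp49a). These genes were chosen by likeness over all 12 libraries, the 24 h ones included. Values near those of Tyrobp and Fcer1g were thus favoured by the choice. Gpnmb and Gxylt2, among those most like Trem2, changed by -0.29 and -0.31 at 24 h and were not called.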

How the data were processed

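Libraries were strand-specific, made from 200 ng of total RNA with 14 PCR cycles and read as single 75-base reads, per the labels' protocols. The submitters' processing notes name edgeR 3.8.5, R 3.1.0, SAMtools 0.1.19, Bowtie2 2.21, bcl2fastq 2.16.0.10 and the build GRCm38. How reads were counted per gene (tool, strand, annotation) is not given in the sources used here. The authors deposited raw read counts for 41128 genes. RPKM values were deposited beside them, whose ratio to the counts gave 1 factor per library, within 1.14% of the effective library size. Coordinates are those of the deposited tables. No per-sample column was left unused (0 columns).

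Counts were fitted with edgeR 4.0.16 (R 4.3.3): filterByExpr left 15347 genes (0.466 CPM or more in 2 libraries), TMM scaling, a quasi-likelihood model with 1 mean per group over all 12 libraries (6 residual degrees of freedom, biological coefficient of variation 4.71%), Benjamini-Hochberg adjustment over all tested genes. SE was taken as the size of the log2 fold change over the root of its F statistic. Replicates of a group differed by a chi-square of 2.63 to 4.61 per degree of freedom and were counted as separate. DESeq2 1.42.0 and limma 3.58.1 on log2(RPKM + 0.5 or 0.1) served as alternatives. The fit was tested on simulated counts.

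The 10 genes and all lists were chosen with earlier results of these data known. Named besides the 10 and Sox7 were, from the lists of other receptors, ligands and signalling genes, up to 5 called genes with the smallest adjusted p at 24 h and every gene called against its list's majority, signalling genes called at 6 h, counted genes within 10 kb (1 is not reported here), and the 5 genes most like Tyrobp, Fcer1g and Trem2 among genes whose mean log2 CPM was 1 or more. Marker lists covered macrophages, granulocytes, mast cells and basophils, lymphoid and natural killer cells, megakaryocytes, erythroid and endothelial cells; markers named there were chosen after their values were seen. Promoter sequences came from RefSeq (GRCm38.p6), shared 75-base stretches from GENCODE M21 transcripts. A planned search of protein sequences for ITAM and ITIM motifs was not run. The limit of 3 reads for a count of 0 covers counting error only.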

Additional observations from a re-analysis of the deposited data

Results flagged for a closer look

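The effect of Dox differed between hours, by the test of the difference itself, for 4 genes. For Fcer1g the log2 fold change at 24 h was lower than that at 12 h by a difference of -1.82 ± 0.35. For Igsf6 the same difference was -2.05 ± 0.39, and for Fcgr3 it was -1.26 ± 0.32. For Lilrb4 the log2 fold change at 12 h was lower than that at 6 h by a difference of -0.921 ± 0.215, and the difference of -0.67 ± 0.19 between 24 and 12 h was not called. The Lilrb4 call was lost in 15 of 18 alternatives and the Fcgr3 call in 11 of 18.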

How the results depend on the processing

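The 24 h calls of Fcer1g, Tyrobp, Fcgr3, Lilrb4, Cd200r4 and Igsf6 were kept in all 14 alternatives run, and the count of 8 members lower at 24 h ran from 6 (stricter filter of 1 CPM in 4 libraries, which leaves out the scarce genes) to 8. A fit without 1 library leaves that group with 1 sample, which is then assumed to vary like the other groups. Over all 51 member results, 694 alternatives gave 605 values on the same side of the threshold, 66 that lost a call, 1 that gained one and 22 that changed sign; those 22 were all uncalled 6 and 12 h values. The cause of the changes below was not tested.

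Genes called lower at 6 h went from 110 to 177 with no filter, 40 and 44 with limma (pseudocounts 0.5 and 0.1) and 35 to 85 without 1 replicate; genes higher went from 126 to 32 and 34 with limma and 47 to 95 without 1 replicate. At 12 h genes lower went from 538 to 336 with DESeq2, 164 and 168 with limma and 195 to 365 without 1 replicate, and genes higher from 500 to 194, 186 and 228 to 389. At 24 h genes higher went from 690 to 449 and 435 with limma and 392 to 724 without 1 replicate, and genes lower from 1000 to 618 to 773. Of the members, 12 h calls went from 2 to 1 with both limma fits and 1 to 2 without 1 replicate. Signalling genes lower at 12 h went from 4 to 1 with DESeq2, 2 and 1 with limma and 0 to 4 without 1 replicate (0 without Dox 12 h replicate 2, 2 without untreated 12 h replicate 1), and those lower at 6 h from 0 to 1 with no filter. Members whose Dox effect changed from 6 to 12 h went from 1 to 0 with RLE or upper-quartile scaling, the stricter filter, DESeq2, both limma fits, only the hours compared or the crossed block, and 0 to 1 without 1 replicate. From 12 to 24 h they went from 3 to 5 with no filter, 0 with limma at 0.1 and 0 to 4 without 1 replicate. Untreated rises went from 4 to 2 to 3 without 1 replicate (6 to 12 h), and from 10 to 6 with DESeq2, which gave no adjusted p for 3 members, and 6 to 9 without 1 replicate (12 to 24 h). Rises with Dox from 6 to 12 h went from 2 to 0 with DESeq2, 1 with both limma fits and 0 to 2 without 1 replicate.

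Uncalled values changed sign as follows. Tyrobp at 6 h (-0.02) was 0.0529 with DESeq2, 0.0608 and 0.0566 with limma, 0.000119 with only the hours compared and 0.00871 with the replicate block. Fcer1g at 6 h (0.07) was -0.0542 and -0.0775 with limma, and Cd200r4 (-0.16) 0.0109 with limma at 0.5. Without 1 replicate the 6 h values ran from -0.596 to 0.597 for Tyrobp, -0.377 to 0.28 for Fcer1g, -0.761 to 0.461 for Cd200r4, -0.14 to 1.07 for Fcgr1, -0.0669 to 0.159 for Lilrb4 and -0.785 to 0.516 for Fcgr2b. The 12 h values ran from -0.389 to 0.0747 for Igsf6, -1.48 to 0.0103 for Fcgr2b and -0.894 to 0.0984 for Fcgr1.

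Same-numbered libraries did not deviate together (correlations of -0.27, 0.074 and 0.065 at 6, 12 and 24 h over 10241 genes), so the numbers were not taken as pairing. At each hour the same-numbered untreated and Dox libraries differed in depth, so this check cannot tell pairing from depth. With 2 libraries per group, the negative value at 6 h also means that libraries of like depth deviated together there. With the replicate block 8 members were lower at 24 h, 2 at 12 h and 0 at 6 h, and 1017 genes were lower at 24 h. The crossed block, added after seeing the data, set deep against shallow libraries and gave 8, 2 and 0 members, and 979 genes. The depth of the shallow libraries limits Fcgr1, Fcgr2b and Trem2, with 1 to 34 reads per 24 h library outside the 53 of Fcgr1 in untreated replicate 2.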
